A study of Mus musculus with 8 samples.

Results

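Kallikreins are secreted serine proteases, and clade B serpins and Spink proteins are inhibitors of serine and cysteine proteases. The members were the protein-coding genes whose symbols begin with Klk, Serpinb or Spink followed by a digit. The rule used no measured value, but it was chosen with earlier results of these data known. The table held 59 of them among 25466 genes, namely 26 Klk, 22 Serpinb and 11 Spink genes. A further 5 annotated members (Serpinb9c, Serpinb9d, Serpinb9f, Serpinb6d and Spink11) are not analysed here. After the filter on low counts 45 members were tested (25 Klk, 16 Serpinb and 4 Spink genes), and the 14 others reached at most 2.64 CPM (counts scaled to the effective size of each library) in any library.

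RNA-seq was performed on medullary thymic epithelial cells (mTECs), the thymic cells that present the body's own tissue antigens to developing T cells. The cells came from young BL6N6 mice of wild-type genotype, were depleted of CD45-positive cells and were sorted as EpCAM-positive, CDR1-negative and CD45-negative. They were divided by surface Tspan8, a tetraspanin that serves as a tissue-restricted antigen, and by MHC class II into the subsets Tspan8neg MHCIIlow, Tspan8neg MHCIIhigh, Tspan8pos MHCIIhigh and Tspan8pos MHCIIlow, with 2 biological replicates each. Among MHCIIlow cells the labels do not separate early mTECs from those that have passed the mature stage, so a subset can hold several stages. Library totals ranged from 1941518 to 7783841 estimated counts.

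In the epidermis, kallikreins such as Klk5, Klk7 and Klk14 are activated in the outer layers and cut the desmosomal proteins that hold cornified cells together. The inhibitor encoded by Spink5 (LEKTI) restrains them, and its loss causes Netherton syndrome, in which the skin barrier breaks down. Clade B serpins stay mostly inside the cell, where they trap proteases, although some, such as Serpinb5 (maspin), do not inhibit any. The Klk1b genes are a rodent expansion of the tissue kallikrein gene Klk1 and are known from the salivary gland, where several process growth factors.

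All 26 Klk genes lie side by side on the plus strand of chromosome 7 in the GRCm38 genome, from the start of Klk14 at 43690418 to the end of Klk1 at 44229618. In the order of the locus they fall into 10 genes from Klk14 to Klk5, then Klk4 and Klk15, then the 13 Klk1b genes and Klk1. The Serpinb genes form one cluster on chromosome 1, with 11 members in the table, and one on chromosome 13, also with 11.

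The promoters of these clusters differed in sequence. RefSeq entries for the GRCm38.p6 build were matched for 47 of the 59 members, and the 250 bases before each start site were searched on both strands for 9 sets of letters. The searched letters were chosen after the expression values had been seen. The letters TGANTCA, a binding site of AP-1 factors, stood in 6 of 10 promoters of the chromosome 1 serpins, in none of the 10 of the chromosome 13 serpins and in none of the 26 Klk promoters, against 6.75% of all 32817 promoters. The 6 were Serpinb5, Serpinb12, Serpinb11, Serpinb7, Serpinb2 and Serpinb8. The 4 without it were the paralogs Serpinb3a, Serpinb3b, Serpinb3c and Serpinb3d. The site nearest to the start is shown for 5 of the 6, because the same genes are compared across the subsets below, with its letters in capitals and all lines 5′ to 3′ on the plus strand. In Serpinb11 that stretch is an exon in another annotated transcript and is not shown.
Serpinb5, chr1:106861015-106861056: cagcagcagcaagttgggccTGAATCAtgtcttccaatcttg
Serpinb12, chr1:106934384-106934425: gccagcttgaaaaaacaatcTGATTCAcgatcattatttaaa
Serpinb7, chr1:107422624-107422665: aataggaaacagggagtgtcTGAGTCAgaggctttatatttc
Serpinb2, chr1:107511309-107511350: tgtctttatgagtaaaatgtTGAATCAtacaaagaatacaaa
Serpinb8, chr1:107589963-107590004: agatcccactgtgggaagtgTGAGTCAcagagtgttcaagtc
The sites began 140, 45, 45, 94 and 23 bases before the start. The stretch of Serpinb7 lies inside the annotated gene, upstream of one of its later starts. A match of letters is a description and not evidence that a factor binds.

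Among Klk1 and the Klk1b genes the promoters had a median identity of 77.2% over 91 pairs, with a range of 45.6% to 89.6%. The pairs with Klk1 itself reached 45.6% to 65.2%. Those of the 10 genes from Klk14 to Klk5 had a median of 45.2% over 45 pairs. The letters TTTAAA, a variant of the TATA box, stood in 12 of 14 promoters of the Klk1 and Klk1b genes and in none of the 10 from Klk14 to Klk5, against 12.1% of all promoters. The last 80 bases before the start are shown for a pair of Klk1b genes and for Klk7, which stand for these blocks, with TTTAAA in capitals.
Klk1b9, chr7:43975981-43976060: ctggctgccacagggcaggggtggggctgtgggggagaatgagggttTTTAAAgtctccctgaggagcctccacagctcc
Klk1b11, chr7:43995797-43995876: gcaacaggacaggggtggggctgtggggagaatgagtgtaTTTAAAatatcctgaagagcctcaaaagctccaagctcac
Klk7, chr7:43811214-43811293: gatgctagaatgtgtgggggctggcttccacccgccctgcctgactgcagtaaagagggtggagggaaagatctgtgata
The other letters searched were the ETS cores GGAAGT and AGGAAG, the longer ETS site NCCGGAAGN, the KLF boxes CCCACCC and CCNCNCCC, and the boxes TATAAA and TATAAG. The ETS cores can overlap each other and the longer site, and the KLF boxes can overlap each other. GGAAGT stood in 9 of 47 members (19.7% of all promoters), AGGAAG in 20 (29.5%), NCCGGAAGN in 2 (6.86%), CCCACCC in 14 (15.8%) and CCNCNCCC in 28 (45.9%). TATAAA stood in 8 members (12.4% of all), of which 7 were chromosome 1 serpins, and TATAAG in 7 (6.66%).

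Copies also share reads. The share of 31-base stretches of a member's transcripts that also occur in another gene's ranged from 19.7% to 58.4% in Klk1 and the Klk1b genes, with a median of 39.9%, so the estimated counts of single Klk1b genes are uncertain and the block is better read as a sum. In the 12 other Klk genes the median share was 0. Klk14 (22.8%) and Klk8 (22.9%) share sequence with 2310002F09Rik on the opposite strand, and Klk15 (50.3%) with Gm44756, also opposite. The preparation of these libraries is described in conflicting ways, so it is not settled whether strand was kept. Among the serpins, Serpinb3a shared 33.5%, Serpinb6a 29.0% (with Nqo2 and others on the opposite strand), Serpinb2 11.2% (with Serpinb10 on the same strand) and Serpinb1a 10.2%. No Spink gene shared more than 1.29%.

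Tspan8 followed the labels. It stood at 3.65 and 14.6 CPM in Tspan8neg MHCIIlow, 7.07 and 8.72 in Tspan8neg MHCIIhigh, 404 and 352 in Tspan8pos MHCIIhigh, and 347 and 366 in Tspan8pos MHCIIlow. Epcam, Krt5, Krt8, Cd80, Aire and H2-Ab1 were detected in every library. The 4 genes of keratinizing late mTECs (Ivl, Krt10, Lor and Krt1) were all called higher in Tspan8pos at both MHCII levels, with a summed level of 2388 to 2740 CPM in the Tspan8pos libraries and 50 to 122 in the Tspan8neg libraries. The 6 thymocyte markers were detected in all libraries despite the CD45-negative gate, and their sum was 336 and 933 CPM in Tspan8neg MHCIIlow against 62.8 to 196 in the other subsets. Thymocyte RNA was thus highest in Tspan8neg MHCIIlow and above all in its replicate 2. The 4 dendritic or myeloid markers summed to 317 to 389 CPM in the MHCIIhigh libraries and to 51.7 to 126 in the MHCIIlow libraries, chiefly through Lyz2. The part of these cells in the results was not tested. The B cell markers summed to 6.05 to 33.5 CPM, the fibroblast markers to 29.3 to 128, the endothelial markers to 11.6 to 98.9 and the cortical epithelial markers to 44.5 to 210. In bulk samples, fewer cells of a type and less RNA per cell cannot be told apart.

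The families were compared between Tspan8pos and Tspan8neg cells at each MHCII level, which addresses the genes that are co-expressed with this antigen. Within MHCIIlow, 21 of 45 tested members were called higher in Tspan8pos and 0 lower, where 12.1% of all 17006 genes tested were called higher and 9.34% lower. Called means an adjusted p under 0.01 and a log2 fold change of at least 1 in size in edgeR's quasi-likelihood test. DESeq2 also called 0 lower, and 0 fitted differences under 0 had an unadjusted p under 0.05. Within MHCIIhigh, 23 were called higher and 2 lower (background 11.0% and 7.45%). Of these, 19 were higher at both levels, namely 9 Klk, 6 Serpinb and 4 Spink genes. The share of all genes higher at both levels was not computed, so this count has no background beside it. The median log2 fold change over the tested members was 2.44 within MHCIIlow and 1.08 within MHCIIhigh, against -0.029 and -0.027 over all genes. Some members passed the filter only through the subset where they were high, so the counts and medians describe the tested members.

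The MHCII comparisons address maturation and were made within each Tspan8 class. In Tspan8neg cells 22 tested members were called higher in MHCIIhigh and 1 lower (background 13.1% and 9.67%). In Tspan8pos cells 12 were called higher and 2 lower (background 4.59% and 2.62%). The 12 became 19 without either replicate of Tspan8neg MHCIIlow and 6 without replicate 2 of Tspan8pos MHCIIlow, the deepest library. No tested member had its highest mean in Tspan8neg MHCIIlow. The comparisons share libraries, so their counts are not independent of each other.

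**Figure D1:**
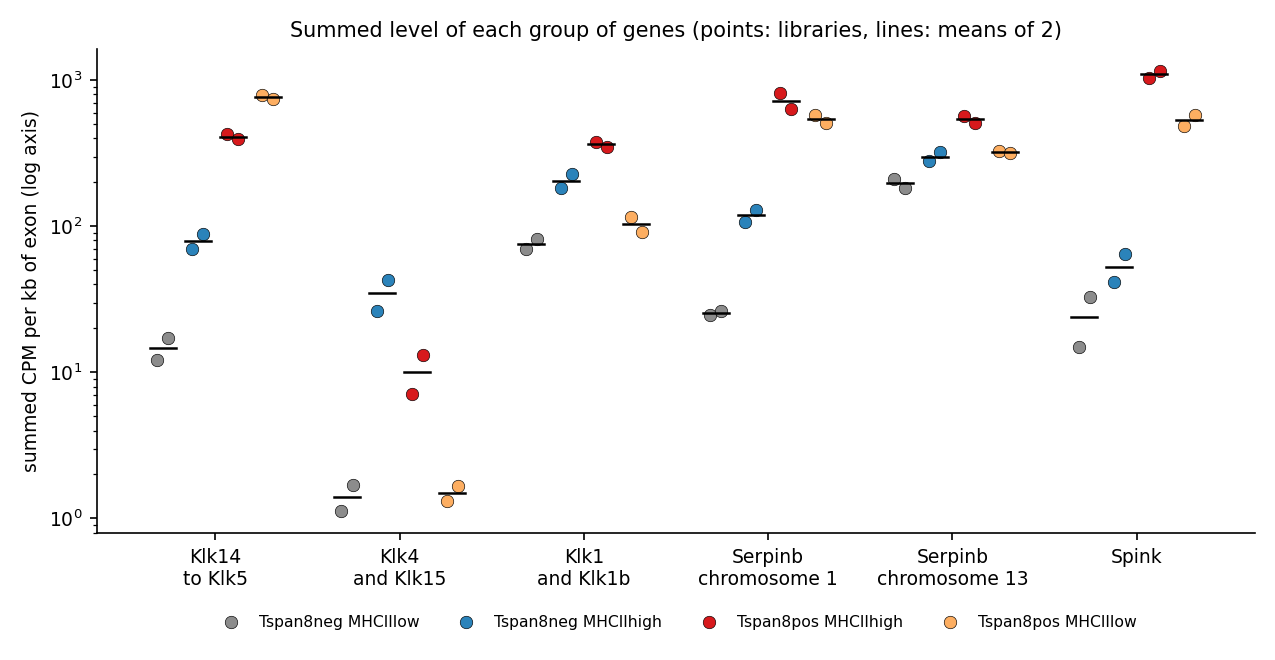
Summed CPM per kilobase of exon (log axis) of 6 groups of genes, all their members in the table included, with 1 point a library and a line at the mean of 2 replicates. The genes from Klk14 to Klk5 are highest in Tspan8pos MHCIIlow, Klk4 and Klk15 in Tspan8neg MHCIIhigh, and the other 4 groups in Tspan8pos MHCIIhigh.

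The desquamation kallikreins from Klk14 to Klk5 had the largest ratio of Tspan8pos MHCIIlow to Tspan8neg MHCIIlow among the 6 groups, 56.9 in summed CPM. Their summed level was 19.4 and 27.6 CPM in Tspan8neg MHCIIlow, 107 and 137 in Tspan8neg MHCIIhigh, 746 and 689 in Tspan8pos MHCIIhigh, and 1389 and 1284 in Tspan8pos MHCIIlow. Of the 10 genes, 9 were called higher in Tspan8pos within MHCIIlow and 8 within MHCIIhigh, against 12.1% and 11.0% of all genes. The remaining gene, Klk12, reached 4.99 CPM at most and was not called in any comparison.

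Klk7, the chymotrypsin-like enzyme that cuts corneodesmosomes, had the highest level per kilobase of them in every subset but Tspan8neg MHCIIhigh, where Klk14 did. It measured 6.18 and 7.07 CPM in Tspan8neg MHCIIlow, 26.2 and 33.3 in Tspan8neg MHCIIhigh, 276 and 231 in Tspan8pos MHCIIhigh, and 639 and 537 in Tspan8pos MHCIIlow. No subset overlapped another. The log2 difference between Tspan8pos and Tspan8neg was 6.46 ± 0.22 (SE) within MHCIIlow (edgeR adjusted p = 5.44e-08) and 3.08 ± 0.18 within MHCIIhigh (adjusted p = 4.74e-07), with n = 2 libraries a subset here and in all that follows.

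Klk5, the trypsin-like protease that activates other kallikreins, did not separate the Tspan8 classes within MHCIIhigh. Its levels were 1.12 and 2.12 CPM in Tspan8neg MHCIIlow, 15.4 and 19.6 in Tspan8neg MHCIIhigh, 13.3 and 19.1 in Tspan8pos MHCIIhigh, and 24.7 and 29.3 in Tspan8pos MHCIIlow. The 2 MHCIIhigh subsets overlapped, while Tspan8neg MHCIIlow lay apart and low. With Tspan8 it differed by 4.03 ± 0.37 within MHCIIlow (edgeR adjusted p = 1.01e-05) and -0.12 ± 0.27 within MHCIIhigh (adjusted p = 0.761).

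Klk14, another trypsin-like enzyme that LEKTI inhibits, reached 4.49 and 2.36 CPM in Tspan8neg MHCIIlow, 24.3 and 27.0 in Tspan8neg MHCIIhigh, 69.9 and 67.3 in Tspan8pos MHCIIhigh, and 67.1 and 87.2 in Tspan8pos MHCIIlow. The Tspan8pos subsets overlapped each other and lay above both Tspan8neg subsets. Its differences with Tspan8 were 4.54 ± 0.27 and 1.41 ± 0.19 within MHCIIlow and MHCIIhigh (edgeR adjusted p = 4.17e-07 and 0.000186).

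Klk6, or neurosin, a degradative protease also known from the brain, held 0.281 and 4.72 CPM in Tspan8neg MHCIIlow, 15 and 21.7 in Tspan8neg MHCIIhigh, 88.4 and 84.5 in Tspan8pos MHCIIhigh, and 213 and 194 in Tspan8pos MHCIIlow. The libraries of Tspan8neg MHCIIlow differed widely from each other, and replicate 2, with the higher Klk6, was also the one with more Tspan8 and more thymocyte RNA, whose part in this was not tested. The Tspan8 difference within MHCIIlow was 6.23 ± 0.43 (edgeR adjusted p = 1.17e-06), 9.37 without replicate 2 of Tspan8neg MHCIIlow and 5.41 without replicate 1. Within MHCIIhigh it was 2.21 ± 0.31 (adjusted p = 0.00024), a call that DESeq2 did not make (adjusted p = 0.0413).

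Klk10, a family member with little proteolytic activity, had 0 and 2.59 CPM in Tspan8neg MHCIIlow, 3.54 and 6.92 in Tspan8neg MHCIIhigh, 26.3 and 23.8 in Tspan8pos MHCIIhigh, and 77.5 and 71.7 in Tspan8pos MHCIIlow. The subsets did not overlap. Tspan8pos exceeded Tspan8neg by 5.71 ± 0.52 within MHCIIlow (edgeR adjusted p = 8.89e-06), a value that rested on replicate 2 of Tspan8neg MHCIIlow for its base and was 4.82 without replicate 1. Without replicate 2 that subset has no count, and the fitted value is no longer a resolved fold. Within MHCIIhigh the difference was 2.19 ± 0.40 (adjusted p = 0.00145), not called without replicate 1 of Tspan8neg MHCIIhigh (adjusted p = 0.023) or replicate 1 of Tspan8pos MHCIIhigh (adjusted p = 0.0139).

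Klk13, a secreted protease of stratified epithelia, was found at 2.53 and 4.01 CPM in Tspan8neg MHCIIlow, 9.57 and 13.3 in Tspan8neg MHCIIhigh, 186 and 186 in Tspan8pos MHCIIhigh, and 234 and 258 in Tspan8pos MHCIIlow. Every Tspan8pos library exceeded every Tspan8neg library. Among all Klk genes it had the largest Tspan8 difference within MHCIIhigh, 3.99 ± 0.19 (edgeR adjusted p = 2.34e-07), beside 6.20 ± 0.24 within MHCIIlow (adjusted p = 6.27e-08).

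Klk8, or neuropsin, stood at 2.25 and 2.36 CPM in Tspan8neg MHCIIlow, 3.12 and 6.02 in Tspan8neg MHCIIhigh, 48.0 and 46.3 in Tspan8pos MHCIIhigh, and 55.5 and 44.8 in Tspan8pos MHCIIlow. Klk11, also expressed in stratified epithelia, measured 0.843 and 1.18, 1.66 and 2.31, 19.1 and 17.3, and 29.1 and 31.3 CPM in the same order of subsets. Both genes separated the Tspan8 classes without overlap. The differences within MHCIIlow were 4.41 ± 0.32 for Klk8 (edgeR adjusted p = 1.81e-06) and 4.86 ± 0.36 for Klk11 (adjusted p = 1.92e-06). Klk9 was called at both levels as well, with differences of 5.17 ± 0.46 and 2.23 ± 0.36 (adjusted p = 7.09e-06 and 0.000623).

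With MHCII the same block divided. In Tspan8neg cells all 10 genes had a higher fitted level in MHCIIhigh, and 5 were called, Klk5 (log2 fold change 3.39 ± 0.38), Klk14 (2.93 ± 0.28), Klk6 (2.79 ± 0.48), Klk7 (2.17 ± 0.22) and Klk13 (1.8 ± 0.28), with edgeR adjusted p between 1.66e-05 and 0.000854. Over all genes 13.1% were called higher in that comparison. The value of Klk6 was 5.93 without replicate 2 of Tspan8neg MHCIIlow and 1.97 without replicate 1. In Tspan8pos cells none was called higher in MHCIIhigh, and Klk7 and Klk10 were called lower, Klk7 by 1.21 on the log2 scale (-1.21 ± 0.16, adjusted p = 0.000417) and Klk10 by 1.57 (-1.57 ± 0.35, adjusted p = 0.00971). Over all genes 4.59% were called higher and 2.62% lower there. Klk6, at -1.23 ± 0.28 (adjusted p = 0.0126), and Klk9, at -1.29 ± 0.31 (adjusted p = 0.016), fell short of the threshold. The call of Klk10 was lost with DESeq2's size factors (edgeR adjusted p = 0.0107) and in 6 of 8 fits without 1 library (adjusted p = 0.0144 to 0.0961).

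The difference between these differences was tested as an interaction. For 7 members the Tspan8 difference was called larger within MHCIIlow than within MHCIIhigh, and for 0 smaller (background 2.36% and 2.24%). Of the 7, 5 were desquamation kallikreins, Klk5 (4.15 ± 0.47, edgeR adjusted p = 0.000485), Klk6 (4.02 ± 0.56, adjusted p = 0.00149), Klk7 (3.38 ± 0.27, adjusted p = 0.000175), Klk14 (3.13 ± 0.34, adjusted p = 0.000441) and Klk13 (2.21 ± 0.32, adjusted p = 0.00179). Serpinb12 and Serpinb2 completed them. Klk10 (3.52 ± 0.72, adjusted p = 0.0105) and Klk9 (2.94 ± 0.63, adjusted p = 0.0128) fell just short. Without replicate 2 of Tspan8pos MHCIIlow, which leaves that subset with the shallowest library, 3 members were called, and Klk6, Klk13, Serpinb12 and Serpinb2 were lost (adjusted p = 0.0117, 0.0153, 0.0256 and 0.0172). Klk13 was also lost without replicate 2 of Tspan8neg MHCIIhigh (adjusted p = 0.0112) or replicate 1 of Tspan8pos MHCIIhigh (adjusted p = 0.0104). DESeq2 called 9 members larger and 0 smaller but not Klk6 (adjusted p = 0.0141), whose value was 7.15 without replicate 2 of Tspan8neg MHCIIlow and 3.18 without replicate 1. With edgeR 3 members had a smaller difference within MHCIIlow at an unadjusted p under 0.05 (Klk1, Serpinb5 and Serpinb1a).

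**Figure D2:**
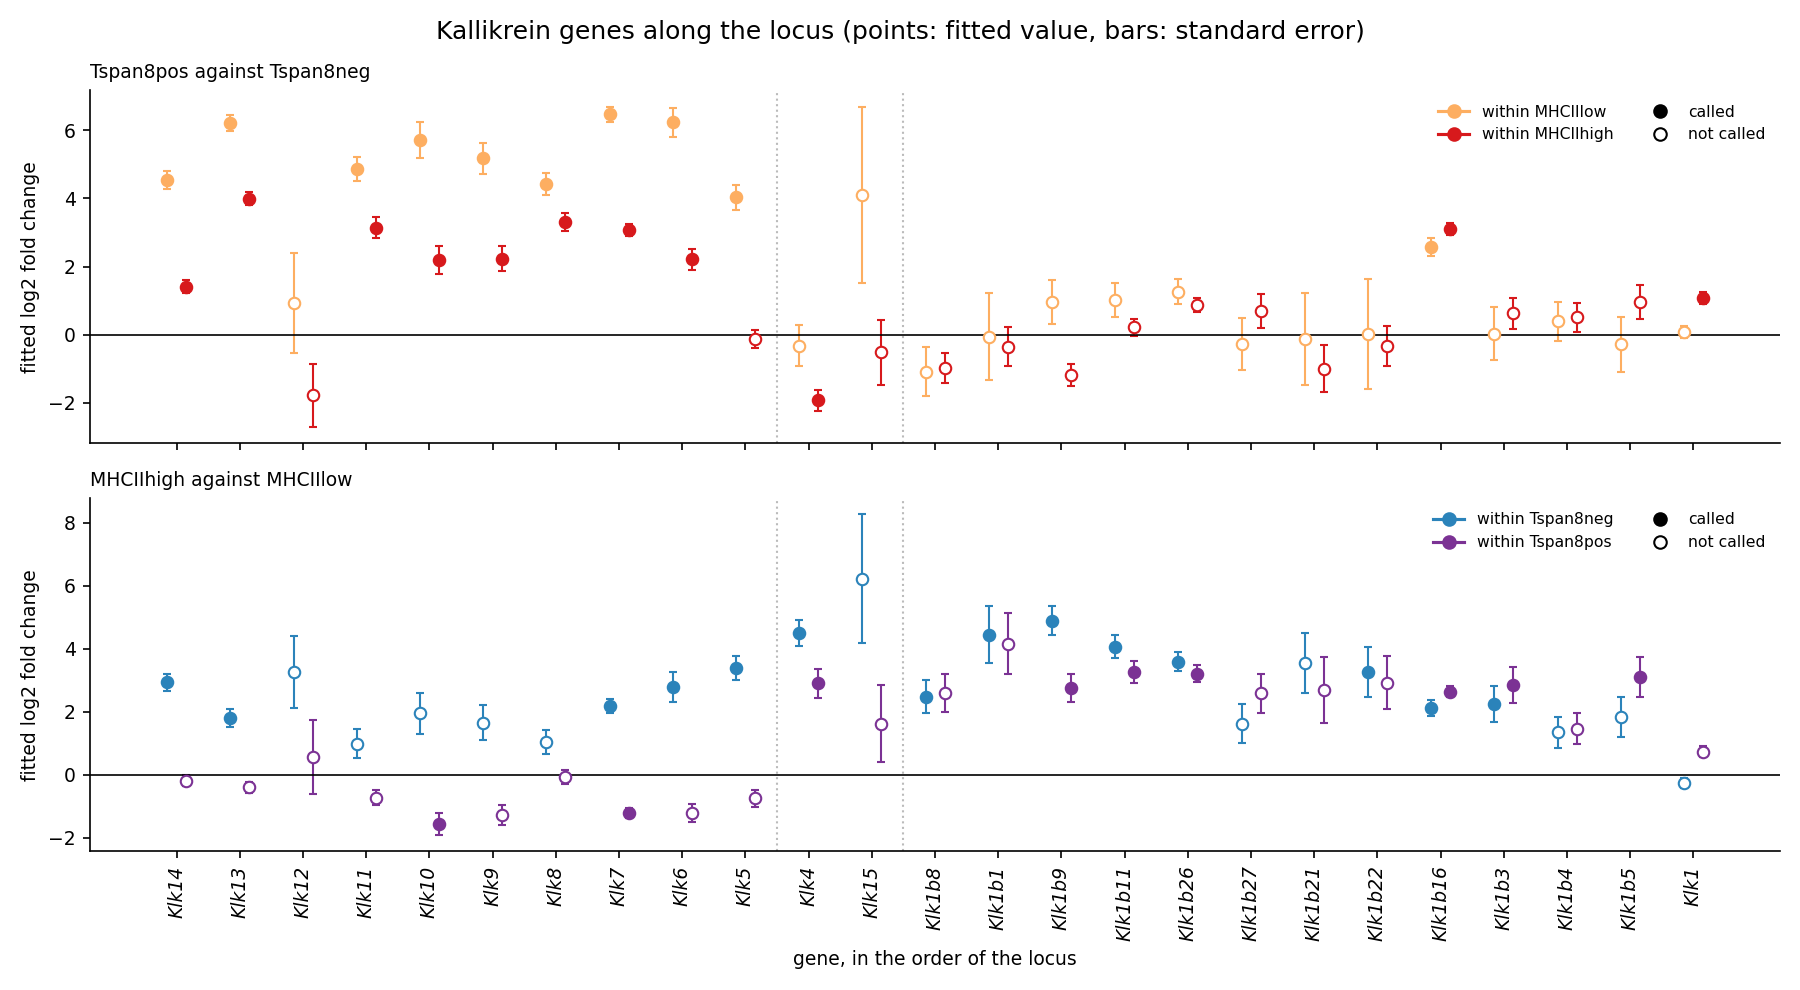
Fitted log2 fold changes with approximate standard errors for the 25 tested Klk genes in the order of the locus. The Tspan8 comparisons are in the upper panel and the MHCII comparisons in the lower panel. Filled points are called, and dotted lines separate Klk14 to Klk5, Klk4 and Klk15, and the Klk1b genes with Klk1. In the first block 9 genes are called within MHCIIlow in the upper panel, against 12.1% of all genes called higher. None of this block lies above 0.55 within Tspan8pos in the lower panel.

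Klk4, the enamel matrix protease, is the next gene of the locus and was lower in Tspan8pos within MHCIIhigh. It measured 1.40 and 2.12 CPM in Tspan8neg MHCIIlow, 30.8 and 51.3 in Tspan8neg MHCIIhigh, 8.56 and 13.2 in Tspan8pos MHCIIhigh, and 1.65 and 1.37 in Tspan8pos MHCIIlow. Tspan8neg MHCIIhigh was highest and both MHCIIlow subsets overlapped at the bottom. In MHCIIhigh cells Klk4 was lower in Tspan8pos by a log2 fold change of -1.92 ± 0.31 (edgeR adjusted p = 0.000573). This call was lost without replicate 2 of Tspan8neg MHCIIhigh (adjusted p = 0.0165) or replicate 1 of Tspan8pos MHCIIhigh (adjusted p = 0.0126). Between the MHCII levels it was higher in MHCIIhigh by 4.51 ± 0.41 in Tspan8neg and 2.90 ± 0.46 in Tspan8pos (adjusted p = 1.15e-05 and 0.00144), the latter lost without replicate 2 of Tspan8pos MHCIIhigh (adjusted p = 0.0136) or replicate 2 of Tspan8pos MHCIIlow (adjusted p = 0.0746). Aire, the regulator of tissue antigen expression, stood at 2658 and 2476 CPM in Tspan8neg MHCIIhigh and 402 and 541 in Tspan8pos MHCIIhigh, against 14.8 to 212 in the MHCIIlow libraries, and its part in the level of Klk4 was not tested. Klk15 was seen at 2.44 CPM or less and had no count in Tspan8neg MHCIIlow.

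Klk1 and the Klk1b genes form the glandular block. Their sum was 75.6 and 86.5 CPM in Tspan8neg MHCIIlow, 188 and 231 in Tspan8neg MHCIIhigh, 437 and 409 in Tspan8pos MHCIIhigh, and 126 and 104 in Tspan8pos MHCIIlow. Of the 13 tested, 8 were called higher in MHCIIhigh within Tspan8neg and 6 within Tspan8pos, against 13.1% and 4.59% of all genes. With Tspan8, 1 was called higher within MHCIIlow and 2 within MHCIIhigh, 7.69% and 15.4% of the 13, which is near the 12.1% and 11.0% of all genes. The difference between these counts was not tested. In the interaction Klk1 had -1.0 ± 0.24 (edgeR adjusted p = 0.0207) and Klk1b9 2.13 ± 0.71 (adjusted p = 0.0779), both short of the threshold. Per kilobase, Klk1 itself carried 76.5% of the sum in Tspan8neg MHCIIlow and was not called with MHCII in Tspan8neg cells (log2 fold change -0.27 ± 0.17, edgeR adjusted p = 0.225).

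Klk1b26 measured 4.21 and 2.12 CPM in Tspan8neg MHCIIlow, 33.7 and 41.3 in Tspan8neg MHCIIhigh, 68.9 and 69.1 in Tspan8pos MHCIIhigh, and 9.89 and 6.42 in Tspan8pos MHCIIlow. Klk1b11 had 1.12 and 1.65, 20.6 and 26.8, 29.5 and 26.0, and 4.4 and 2.32 CPM in that order, and Klk1b9 had 0.562 and 1.18, 22.7 and 31.4, 12.5 and 11.6, and 0.55 and 2.18. In all 3 genes each MHCIIhigh library lay above each MHCIIlow library. The MHCII differences within Tspan8neg were 3.59 ± 0.30, 4.06 ± 0.37 and 4.89 ± 0.46 (edgeR adjusted p = 7.08e-06, 1.35e-05 and 1.64e-05), and within Tspan8pos 3.21 ± 0.26, 3.26 ± 0.34 and 2.75 ± 0.43 (adjusted p = 2.08e-05, 9.2e-05 and 0.00137). The last of these, Klk1b9, was not called without replicate 1 of Tspan8pos MHCIIhigh (adjusted p = 0.0109) or replicate 2 of Tspan8pos MHCIIlow (adjusted p = 0.0118, value 4.39). Klk1b11 within Tspan8pos was 2.65 without the latter library, and Klk1b9 within Tspan8neg 5.53 without replicate 2 of Tspan8neg MHCIIlow.

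Klk1b16 was the exception among the paralogs and was chosen after its values were seen, as were Klk9, Klk1 and Serpinb8. It shares less of its transcript (19.7%) than the others of the block. Its level was 2.81 and 5.19 CPM in Tspan8neg MHCIIlow, 16.4 and 19.1 in Tspan8neg MHCIIhigh, 149 and 156 in Tspan8pos MHCIIhigh, and 23.1 and 25.4 in Tspan8pos MHCIIlow. No subset overlapped another. The gene was called in all 4 pairwise comparisons, with Tspan8 differences of 2.58 ± 0.26 and 3.09 ± 0.18 and MHCII differences of 2.12 ± 0.26 and 2.63 ± 0.18. Its interaction was -0.51 ± 0.34 (edgeR adjusted p = 0.376).

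**Figure D3:**
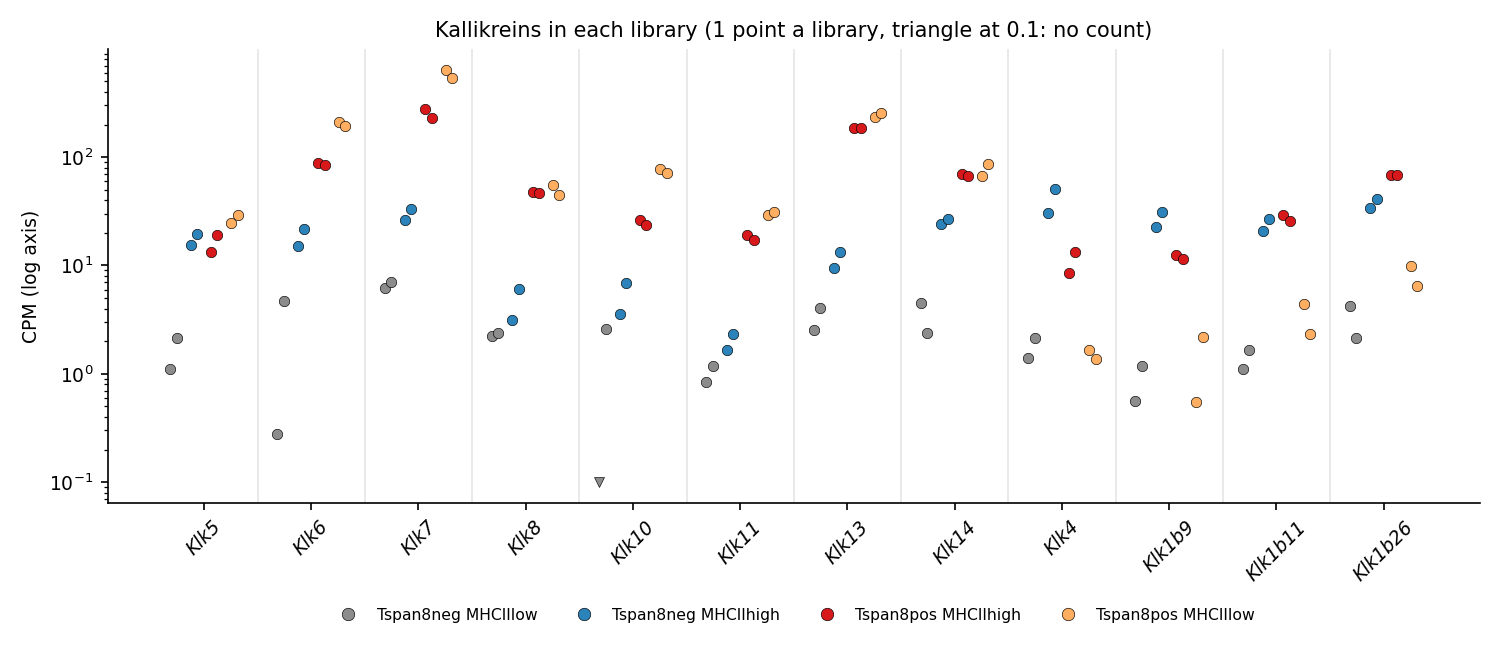
CPM (log axis) of 12 Klk genes in each of the 8 libraries, coloured by subset, with a triangle at 0.1 for a library without a count. From Klk5 to Klk14 the Tspan8pos MHCIIlow libraries are at or near the top, whereas Klk4 and the Klk1b genes drop there to 9.89 CPM or less.

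Of the 11 Spink inhibitors 4 were tested, with a median Tspan8 difference of 4.57 on the log2 scale within MHCIIlow and 5.11 within MHCIIhigh. Spink12 had few counts outside the Tspan8pos libraries. A gene can pass the filter through the subset where it is high, so these medians describe the tested genes and do not rank the families. Their sum was 27.0 and 53.5 CPM in Tspan8neg MHCIIlow, 53.0 and 87.8 in Tspan8neg MHCIIhigh, 2338 and 2193 in Tspan8pos MHCIIhigh, and 1510 and 1767 in Tspan8pos MHCIIlow. All 4 tested genes were called higher in Tspan8pos at both MHCII levels. Over all genes 12.1% were called higher within MHCIIlow and 11.0% within MHCIIhigh. Per kilobase, Spink5 gave 57.6% of the summed level in Tspan8pos MHCIIlow and Spink1 48.7% in Tspan8pos MHCIIhigh.

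Spink5, which encodes the inhibitor of the desquamation kallikreins, measured 19.4 and 36.3 CPM in Tspan8neg MHCIIlow, 28.3 and 52.3 in Tspan8neg MHCIIhigh, 1856 and 1592 in Tspan8pos MHCIIhigh, and 1355 and 1574 in Tspan8pos MHCIIlow. Its levels overlapped between the MHCII subsets of Tspan8neg cells and lay far apart between the Tspan8 classes. The Tspan8 difference was 5.70 ± 0.33 within MHCIIlow (edgeR adjusted p = 4.02e-07) and 5.40 ± 0.32 within MHCIIhigh (adjusted p = 5.47e-07), with an interaction of 0.30 ± 0.40 (adjusted p = 0.689). The MHCII differences, 0.54 ± 0.30 in Tspan8neg and 0.23 ± 0.26 in Tspan8pos, were not called. Per kilobase of exon, Spink5 stood at 306 CPM and Klk7 at 310 in Tspan8pos MHCIIlow, and at 360 and 134 in Tspan8pos MHCIIhigh.

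Spink1, the pancreatic secretory trypsin inhibitor, was detected at 2.81 and 11.1 CPM in Tspan8neg MHCIIlow, 10.4 and 15.6 in Tspan8neg MHCIIhigh, 342 and 434 in Tspan8pos MHCIIhigh, and 112 and 124 in Tspan8pos MHCIIlow. Tspan8pos MHCIIhigh was highest and the Tspan8neg subsets overlapped. Its Tspan8 difference was 4.04 ± 0.37 within MHCIIlow (edgeR adjusted p = 1e-05) and 4.87 ± 0.34 within MHCIIhigh (adjusted p = 1.42e-06), the first being 5.39 without replicate 2 of Tspan8neg MHCIIlow and 3.41 without replicate 1. In Tspan8pos cells it was higher in MHCIIhigh by 1.71 ± 0.29 (adjusted p = 0.00203), which DESeq2 did not call (adjusted p = 0.0339) and which was lost in 3 of 8 fits without 1 library (adjusted p = 0.0245 to 0.0385).

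Spink12 had 1.69 and 1.18 CPM in Tspan8neg MHCIIlow, 1.04 and 3.46 in Tspan8neg MHCIIhigh, 94.2 and 110 in Tspan8pos MHCIIhigh, and 33.0 and 60.2 in Tspan8pos MHCIIlow. Both Tspan8pos subsets were far above the Tspan8neg libraries, which overlapped. Its Tspan8 differences were 5.09 ± 0.47 and 5.35 ± 0.38 (edgeR adjusted p = 9.51e-06 and 1.64e-06), the second being 6.51 without replicate 2 of Tspan8neg MHCIIhigh.

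Spink4, known from goblet cells of the gut, measured 1.69 and 3.06 CPM in Tspan8neg MHCIIlow, 6.45 and 10.1 in Tspan8neg MHCIIhigh, 41.8 and 50.2 in Tspan8pos MHCIIhigh, and 8.79 and 6.69 in Tspan8pos MHCIIlow. It was the tested Spink gene that was called with MHCII in both Tspan8 classes, at 1.79 ± 0.38 and 2.64 ± 0.30 (edgeR adjusted p = 0.00321 and 0.000182), the first lost without replicate 1 of Tspan8neg MHCIIlow (adjusted p = 0.0154) or replicate 2 of Tspan8neg MHCIIhigh (adjusted p = 0.0335) and the second without replicate 2 of Tspan8pos MHCIIlow (adjusted p = 0.0119). With Tspan8 it differed by 2.44 ± 0.28 within MHCIIhigh (adjusted p = 5.24e-05) and 1.59 ± 0.41 within MHCIIlow (adjusted p = 0.0092), and the latter was not called by DESeq2 (adjusted p = 0.0116) or in 5 of 8 fits without 1 library.

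The Serpinb genes are taken by cluster. On chromosome 1 the sum was 70.8 and 65.5 CPM in Tspan8neg MHCIIlow, 259 and 317 in Tspan8neg MHCIIhigh, 1933 and 1503 in Tspan8pos MHCIIhigh, and 1411 and 1242 in Tspan8pos MHCIIlow. Of 9 tested genes, 6 were called higher in Tspan8pos within MHCIIlow and 7 within MHCIIhigh, against 12.1% and 11.0% of all genes. The 6 called within MHCIIlow (Serpinb5, Serpinb12, Serpinb11, Serpinb7, Serpinb2 and Serpinb8) were those whose promoters held TGANTCA, letters chosen after these values had been seen. The match does not extend to MHCIIhigh. There Serpinb3a (2.18 ± 0.50, edgeR adjusted p = 0.00547) and Serpinb3c (2.22 ± 0.50, edgeR adjusted p = 0.00514) were called higher without the letters. Serpinb12, with them, was not called higher (-0.70 ± 0.16). Whether the call of Serpinb3c holds under DESeq2 or without 1 library was not followed. Within MHCIIlow the call of Serpinb12 was lost without replicate 2 of Tspan8pos MHCIIlow (adjusted p = 0.0257). The call of Serpinb3a within MHCIIhigh was lost without any 1 of the 4 MHCIIhigh libraries or of the Tspan8pos MHCIIlow libraries (edgeR adjusted p = 0.0103 to 0.0727). Serpinb3a and Serpinb3c had fitted differences of 2.57 ± 0.68 and 2.84 ± 0.75 within MHCIIlow (edgeR adjusted p = 0.0105 and 0.0107), just short of the threshold. Both differences were larger than that of Serpinb12 (1.52), so the match within MHCIIlow rests on where the threshold falls. These paralogs were the only tested genes of the cluster known to lack the letters, as Serpinb13 had no promoter entry.

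Serpinb2, plasminogen activator inhibitor type 2, was the highest per kilobase of the chromosome 1 cluster in every subset but Tspan8neg MHCIIhigh, where Serpinb12 was, with 30.6 and 28.5 CPM in Tspan8neg MHCIIlow, 102 and 119 in Tspan8neg MHCIIhigh, 1345 and 982 in Tspan8pos MHCIIhigh, and 916 and 721 in Tspan8pos MHCIIlow. No subset overlapped another. The differences with Tspan8 were 4.79 ± 0.21 within MHCIIlow and 3.39 ± 0.19 within MHCIIhigh (edgeR adjusted p = 1.04e-07 and 4.45e-07). Their interaction, 1.40 ± 0.26 (adjusted p = 0.00664), was lost in 5 of 8 fits without 1 library (adjusted p = 0.0134 to 0.0326).

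Serpinb11 stood at 1.40 and 5.42 CPM in Tspan8neg MHCIIlow, 8.53 and 10.8 in Tspan8neg MHCIIhigh, 182 and 174 in Tspan8pos MHCIIhigh, and 197 and 222 in Tspan8pos MHCIIlow. Serpinb7, whose human counterpart is mutated in a palmoplantar keratosis, held 0.281 and 2.83, 5.61 and 9.48, 84.4 and 75.0, and 48.4 and 55.7 CPM in the same order. In both genes the Tspan8pos libraries stood clear of the Tspan8neg libraries. Differences within MHCIIlow were 5.88 ± 0.32 and 4.97 ± 0.44 (edgeR adjusted p = 2.65e-07 and 6.81e-06), and became 7.20 and 7.44 without replicate 2 of Tspan8neg MHCIIlow and 5.27 and 4.20 without replicate 1. Within MHCIIhigh they were 4.18 ± 0.26 and 3.35 ± 0.31 (adjusted p = 7.17e-07 and 1.17e-05). Their rise with MHCII in Tspan8neg cells, 1.45 ± 0.38 and 2.22 ± 0.52 (adjusted p = 0.00936 and 0.00547), was called in 1 and 2 of 8 fits without 1 library. Without replicate 1 of Tspan8neg MHCIIlow these values were 0.84 and 1.46, and without replicate 2 they were 2.77 and 4.68.

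Serpinb5, or maspin, was the member called lower in MHCIIhigh within Tspan8neg. It measured 12.4 and 9.19 CPM in Tspan8neg MHCIIlow, 3.33 and 3.59 in Tspan8neg MHCIIhigh, 66.5 and 51.6 in Tspan8pos MHCIIhigh, and 66.5 and 52.0 in Tspan8pos MHCIIlow. In Tspan8neg cells MHCIIhigh was lower, by a log2 fold change of -1.61 ± 0.29 (edgeR adjusted p = 0.00118), and the call was lost without replicate 1 (adjusted p = 0.0127) or replicate 2 (adjusted p = 0.017) of Tspan8neg MHCIIhigh. In Tspan8pos cells the subsets overlapped (0.021 ± 0.20, adjusted p = 0.965). The Tspan8 difference was 2.44 ± 0.23 within MHCIIlow and 4.08 ± 0.25 within MHCIIhigh (adjusted p = 1.25e-05 and 6.97e-07), with an interaction of -1.63 ± 0.35 (adjusted p = 0.0135).

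Serpinb12, an inhibitor of trypsin-like proteases, was highest in MHCIIhigh. Its levels were 4.49 and 5.89 CPM in Tspan8neg MHCIIlow, 111 and 139 in Tspan8neg MHCIIhigh, 77.1 and 76.8 in Tspan8pos MHCIIhigh, and 13.2 and 16.0 in Tspan8pos MHCIIlow. It was higher in MHCIIhigh by 4.57 ± 0.22 in Tspan8neg and 2.35 ± 0.19 in Tspan8pos cells (edgeR adjusted p = 4.73e-07 and 1.91e-05). Between the Tspan8 classes it differed by 1.52 ± 0.25 within MHCIIlow (adjusted p = 0.000643) and -0.70 ± 0.16 within MHCIIhigh (adjusted p = 0.00485), the latter under the fold threshold. The interaction was 2.22 ± 0.30 (adjusted p = 0.00117). The calls within MHCIIlow and of the interaction were lost without replicate 2 of Tspan8pos MHCIIlow (adjusted p = 0.0257 and 0.0256).

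Serpinb3a, a relative of the squamous cell carcinoma antigens, reached 0 and 2.59 CPM in Tspan8neg MHCIIlow, 5.20 and 4.36 in Tspan8neg MHCIIhigh, 23.5 and 19.5 in Tspan8pos MHCIIhigh, and 9.34 and 7.78 in Tspan8pos MHCIIlow. Its Tspan8 difference within MHCIIhigh, 2.18 ± 0.50 (edgeR adjusted p = 0.00547), was lost in 6 of 8 fits without 1 library (adjusted p = 0.0103 to 0.0727), and part of its reads can come from the paralogs. Serpinb8 measured 21.6 and 9.43 CPM in Tspan8neg MHCIIlow, 16.2 and 21.5 in Tspan8neg MHCIIhigh, 129 and 102 in Tspan8pos MHCIIhigh, and 156 and 159 in Tspan8pos MHCIIlow. It rose with Tspan8 at both levels, by 3.37 ± 0.29 and 2.60 ± 0.27 (adjusted p = 6.65e-06 and 2.8e-05). Serpinb13 reached 2.91 CPM, had no count in Tspan8neg MHCIIlow and was not called.

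**Figure D4:**
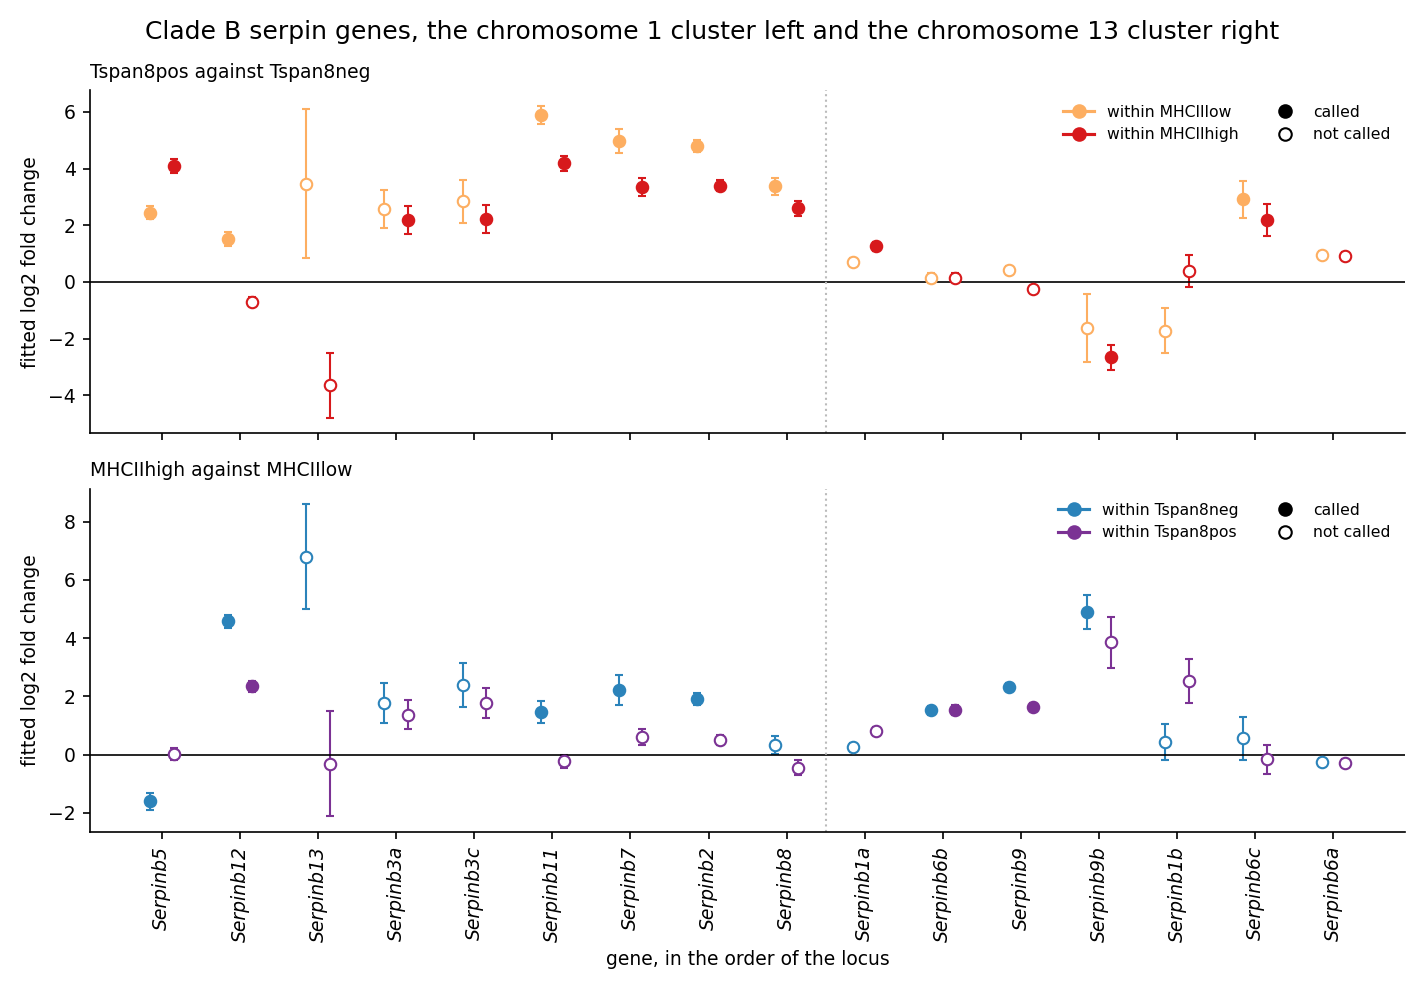
Fitted log2 fold changes with approximate standard errors for the 16 tested Serpinb genes. The chromosome 1 cluster is to the left of the dotted line and the chromosome 13 cluster to the right. The Tspan8 comparisons are in the upper panel and the MHCII comparisons in the lower panel. Filled points are called. Within MHCIIlow 6 of 9 genes on chromosome 1 and 1 of 7 on chromosome 13 are called higher with Tspan8, against 12.1% of all genes.

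On chromosome 13 the sum went from 606 and 560 CPM in Tspan8neg MHCIIlow to 801 and 913 in Tspan8neg MHCIIhigh, 1554 and 1401 in Tspan8pos MHCIIhigh, and 993 and 971 in Tspan8pos MHCIIlow. Of 7 tested genes 1 was called higher in Tspan8pos within MHCIIlow, and 2 were called higher and 1 lower within MHCIIhigh. The 1 of 7 (14.3%) within MHCIIlow is near the 12.1% of all genes called higher there. Within MHCIIhigh the 2 and 1 of 7 (28.6% and 14.3%) stand beside 11.0% and 7.45% of all genes. The gene higher at both levels was Serpinb6c, which did not exceed 6.69 CPM. Its Tspan8 differences were 2.91 ± 0.65 within MHCIIlow and 2.19 ± 0.56 within MHCIIhigh (edgeR adjusted p = 0.00429 and 0.00993). The second adjusted p lies just under the threshold of 0.01, with 3 and 12 counts in the Tspan8neg MHCIIhigh libraries. Serpinb6c shares 22.9% of its transcript stretches with other genes. Whether its calls hold under DESeq2 or without 1 library was not followed.

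Serpinb1a, an inhibitor of neutrophil serine proteases, had the highest level per kilobase of this cluster in every subset, with 332 and 264 CPM in Tspan8neg MHCIIlow, 333 and 376 in Tspan8neg MHCIIhigh, 918 and 786 in Tspan8pos MHCIIhigh, and 496 and 480 in Tspan8pos MHCIIlow. Tspan8pos MHCIIhigh was highest. Its Tspan8 difference was called within MHCIIhigh (1.26 ± 0.15, edgeR adjusted p = 6.17e-05) and stayed under the fold threshold within MHCIIlow (0.71 ± 0.15, adjusted p = 0.00282).

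Serpinb6a, an inhibitor of cathepsin G, had 187 and 218 CPM in Tspan8neg MHCIIlow, 161 and 176 in Tspan8neg MHCIIhigh, 326 and 318 in Tspan8pos MHCIIhigh, and 396 and 384 in Tspan8pos MHCIIlow. The Tspan8 classes did not overlap. Its differences with Tspan8 of 0.95 ± 0.13 and 0.93 ± 0.13 had small adjusted p (edgeR, 0.000189 and 0.000227) but were just under the fold threshold.

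Serpinb9, the granzyme B inhibitor, was called with MHCII and not with Tspan8. It measured 44.1 and 40.1 CPM in Tspan8neg MHCIIlow, 200 and 224 in Tspan8neg MHCIIhigh, 181 and 172 in Tspan8pos MHCIIhigh, and 53.3 and 59.2 in Tspan8pos MHCIIlow. Its relative Serpinb6b had 37.9 and 33.5, 90.5 and 114, 113 and 114, and 39.6 and 39.0 CPM in the same order. In both genes the MHCIIhigh libraries lay above all MHCIIlow libraries. The MHCII differences of Serpinb9 were 2.33 ± 0.14 in Tspan8neg and 1.63 ± 0.14 in Tspan8pos (edgeR adjusted p = 1.28e-06 and 2.72e-05), and those of Serpinb6b were 1.52 ± 0.16 and 1.53 ± 0.16 (adjusted p = 3.08e-05 and 9.33e-05). With Tspan8 they differed by -0.26 to 0.43, and none of these differences was called. The sum of the dendritic or myeloid markers was also higher in MHCIIhigh, chiefly through Lyz2. Itgax went the other way in Tspan8neg cells (log2 fold change -1.75, not called). The part of such cells in the levels of these serpins was not tested.

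Serpinb9b, a mouse paralog of Serpinb9, was found chiefly in Tspan8neg MHCIIhigh. Its level was 0.562 and 0.236 CPM in Tspan8neg MHCIIlow, 10.6 and 13.7 in Tspan8neg MHCIIhigh, 1.79 and 2.03 in Tspan8pos MHCIIhigh, and 0 and 0.137 in Tspan8pos MHCIIlow. Against Tspan8neg MHCIIlow, whose libraries were at or under the floor of 3 counts, Tspan8neg MHCIIhigh was at least 15.7-fold higher (edgeR adjusted p = 8.28e-05). Within MHCIIhigh it was lower in Tspan8pos, by a log2 fold change of -2.66 ± 0.45 (edgeR adjusted p = 0.000777), a call lost without replicate 2 of Tspan8neg MHCIIhigh (adjusted p = 0.0327) or replicate 1 of Tspan8pos MHCIIhigh (adjusted p = 0.0128).

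**Figure D5:**
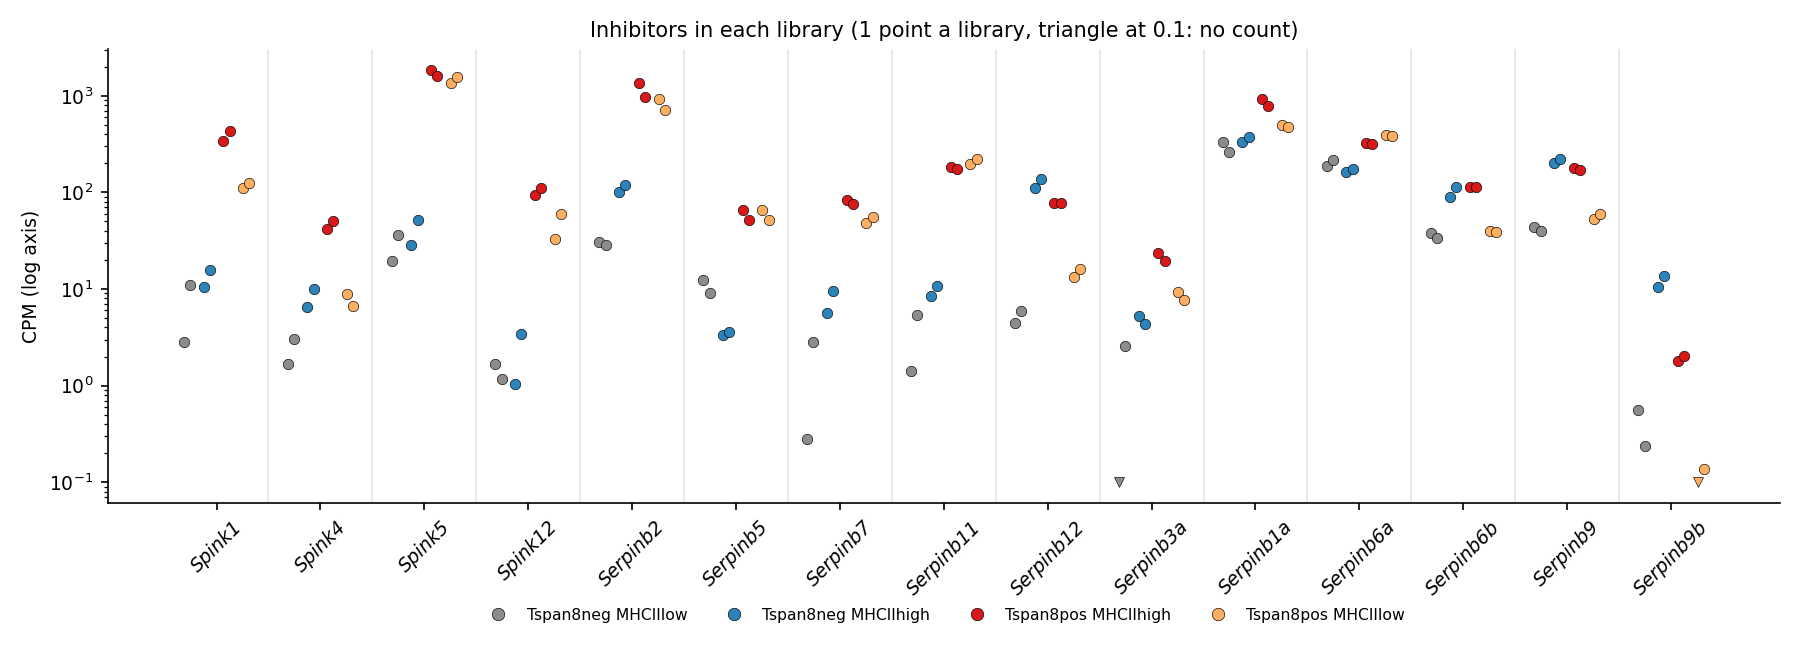
CPM (log axis) of 4 Spink and 11 Serpinb genes in each of the 8 libraries, coloured by subset, with a triangle at 0.1 for a library without a count. Spink1, Spink5, Spink12, Serpinb2, Serpinb7 and Serpinb11 separate the Tspan8 classes, whereas Serpinb6b, Serpinb9, Serpinb9b and Serpinb12 are highest in MHCIIhigh libraries.

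The activators, targets and receptors of the kallikreins were taken from a list of 15 genes. This list and those of the next paragraph were chosen with earlier results of these data known, so their counts are descriptive. Within MHCIIlow 9 were called higher and 1 lower in Tspan8pos, and within MHCIIhigh 9 were called higher, with medians of 2.26 and 2.02 on the log2 scale (higher in 12.1% and 11.0% of all genes, lower in 9.34% within MHCIIlow). Among the targets, Cdsn (corneodesmosin) was higher by 5.83 within MHCIIlow and 3.59 within MHCIIhigh, Dsc1 (desmocollin 1) by 5.03 and 3.80, and Flg (filaggrin) by 6.07 and 4.16. Dsg3 (4.02 and 4.70) and Flg2 (7.11 and 5.80) were also called higher at both levels, Flg2 with no count in replicate 1 of Tspan8neg MHCIIlow. Dsg1a (0.94 and -0.41) and Camp (0.051 and -1.41) were called at neither level. Dsg1b was called within MHCIIlow (1.58) and not within MHCIIhigh (-0.18), and Dsc3 within MHCIIhigh (1.28) and not within MHCIIlow (-0.13). The gene called lower within MHCIIlow was F2r (-1.94), which was not called within MHCIIhigh (-0.79). Of the 15 genes, 4 had called interactions (background 2.36%), namely Cdsn (2.24), Flg (1.92), Dsg1b (1.76) and Dsg1a (1.35). Prss8 (prostasin), an upstream protease, was higher by 2.83 and 2.36, whereas matriptase (St14), at 0.86 and 0.42, and the kallikrein-activated receptor F2rl1, at -1.21 and -1.16, were not called.

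Of 18 other epithelial protease inhibitors tested, 9 were called higher and 2 lower in Tspan8pos within MHCIIlow, and 8 higher and 1 lower within MHCIIhigh, against 12.1%, 9.34%, 11.0% and 7.45% of all genes. The lower calls are near that background. Cst6 (cystatin E/M) was higher by 5.09 and 2.79, Wfdc2 by 4.27 and 3.72 and Spint1 by 1.11 and 1.33. Among 11 tested proteases that clade B serpins are known to inhibit, 4 were called higher and 2 lower in Tspan8pos within MHCIIlow. Within MHCIIhigh 3 were called higher. These counts stand beside 12.1%, 9.34% and 11.0% of all genes, and with so few genes they were not tested against those shares. Plat (2.82 and 1.93) and Plau (2.26 and 2.02, also in the first list), the plasminogen activators that Serpinb2 inhibits, were called higher in Tspan8pos at both levels. Gzmb, the target of Serpinb9, was lower in Tspan8pos within MHCIIlow (-4.35) and did not exceed 10.9 CPM, and its part from lymphoid cells was not tested.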

How the data were processed

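RNA-seq of 8 libraries (4 sorted subsets, 2 biological replicates each) was analysed from the estimated counts per gene that the authors deposited. According to the methods and the submitters' processing notes, reads were quantified with Salmon 1.8.0 on the Gencode vM10 mouse transcriptome (mm10), and DESeq2 1.30.0 was used downstream. The deposited values are whole numbers, and the step from transcripts to genes was not given in the sources used here. Salmon divides reads among similar transcripts, so counts of close paralogs depend on its estimate.

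Gene IDs were matched to symbols of the GENCODE annotation of GRCm38 for 25336 genes (99.49%), and 130 had no match. Libraries were scaled by TMM in edgeR 4.0.16 (R 4.3.3), low genes were removed with filterByExpr, and 17006 genes were tested with the quasi-likelihood test on 4 subset means and Benjamini-Hochberg adjustment. Called means an adjusted p under 0.01 and a log2 fold change of at least 1. CPM use the effective library sizes, and CPM per kilobase of merged exon were used to compare genes. The biological coefficient of variation was 15.5%, 1 value for all subsets. The replicates did not differ equally. Their mean chi-square per gene against counting error was 9.84 in Tspan8neg MHCIIlow and 3.29 in Tspan8neg MHCIIhigh. It was 5.25 in Tspan8pos MHCIIhigh and 3.36 in Tspan8pos MHCIIlow. The shared spread can therefore understate the uncertainty of comparisons with Tspan8neg MHCIIlow. With 2 libraries a group an exact permutation test cannot reach 0.05, so p-values come only from the fit across all genes. The counts of 3 taken as a floor correspond to 0.385 to 1.65 CPM and cover counting error only. The code was tested on simulated data.

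Genes described by library were the epidermal cascade kallikreins Klk5, Klk6, Klk7, Klk8, Klk10, Klk11, Klk13 and Klk14, Spink5, 7 serpins set by name, the 3 called members of each family, comparison and direction with the largest fold, a mean of at least 10 CPM in a subset and no overlap, and any member called in the interaction. The members and lists were chosen with earlier results of these data known. Alternatives were DESeq2 1.42.0, its size factors, no filter, the replicate number as a block, and leaving out each library. Single calls were followed under these alternatives only for the named members, which are the genes chosen by that rule. Those of other members, such as Klk9, Klk1, Klk1b16, Serpinb3c, Serpinb6c and Serpinb8, were not followed. Promoters of 250 bases came from RefSeq (GRCm38.p6). The values of 1 gene of the lists are not reported here.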

Additional observations from a re-analysis of the deposited data

Results flagged for a closer look

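For 7 of 45 tested members the Tspan8 difference itself was called larger within MHCIIlow in the edgeR interaction test, against 2.36% of all genes. The Tspan8 log2 difference within MHCIIlow minus that within MHCIIhigh was 4.15 for Klk5 (adjusted p = 0.000485), 4.02 for Klk6 (adjusted p = 0.00149), 3.38 for Klk7 (adjusted p = 0.000175), 3.13 for Klk14 (adjusted p = 0.000441), 2.21 for Klk13 (adjusted p = 0.00179), 2.22 for Serpinb12 (adjusted p = 0.00117) and 1.40 for Serpinb2 (adjusted p = 0.00664). For Klk5 the difference within MHCIIhigh was -0.12, and for Serpinb12 it was -0.70, whereas the other 5 genes were called higher in Tspan8pos at both levels. Groups of 2 libraries are too small to look for a single library that stands apart within a subset.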

How the results depend on the processing

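Of 864 values of named members under the alternatives, 800 kept their direction and side of the threshold, 64 lost their call and 0 reversed, and 52 of 72 called values held under every alternative run. DESeq2 lost 4 calls, its size factors 1, no filter 0, and leaving out a library 0 to 14, the most without Tspan8pos MHCIIlow replicate 2. The 2 members lower in MHCIIhigh within Tspan8pos became 1 with DESeq2's size factors and 4 with no filter, and 0 with a smaller Tspan8 difference within MHCIIlow became 1 with no filter. The labels do not say whether libraries with the same replicate number belong together. Same-numbered libraries deviated together with correlations of 0.00402 to 0.0924, which cannot settle whether they are paired. With the replicate block those counts were 4 and 1, and no named call was lost. Without 1 library, 18 to 23 members were higher and 0 lower in Tspan8pos within MHCIIlow, and 17 to 23 higher and 0 to 3 lower within MHCIIhigh, with 0 lower without Tspan8neg MHCIIhigh replicate 2 or Tspan8pos MHCIIhigh replicate 1. In MHCIIhigh, 15 to 25 were higher and 0 to 1 lower within Tspan8neg, with 0 lower without either replicate of Tspan8neg MHCIIhigh, and 6 to 19 were higher and 1 to 4 lower within Tspan8pos. In the interaction 3 to 10 were larger and 0 to 1 smaller. In such fits the lone library is assumed to vary like the other subsets. The cause of these changes was not tested. Tspan8neg MHCIIlow, where many members had few counts and the replicates differed most, limits the precision of folds against it.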
